A study of Arabidopsis thaliana with 15 samples.

Results

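The mitochondrial and chloroplast genomes of Arabidopsis thaliana were followed through pollen germination and pollen tube growth with 100 probe sets of the ATH1 array. These are the probe sets that paired with exactly 1 locus coded ATMG (mitochondrial genome) or ATCG (chloroplast genome), 100 of 22746 probe sets on the array without its controls. The chloroplast genome had 72 of them and the mitochondrial genome 28. Another 51 organelle probe sets could not be tied to exactly 1 locus and were kept apart.

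All pollen came from wild-type Columbia plants, and the labels give 15 arrays as biological replicates of 4 conditions. SIV PT (n = 3) were semi in vivo tubes that grew through the stigma and style of a cut pistil for 3 h and then on solid medium, for 5 h by the sample labels and for 3 h by the protocol. The other conditions were dry pollen (n = 4), 0.5 h PT (n = 4) and 4 h PT (n = 4), pollen without growth and pollen grown in vitro for 0.5 h and 4 h. The pistils were of the male sterile mutant ms1 in the Landsberg background. SIV PT bundles from many pistils were pooled and cut where they left the style, so the grains stayed behind. The study reports that microscopy found the bundles free of pistil tissue. In vitro samples held whole grains and tubes, some ungerminated at 4 h. Labelling began from 2 µg of total RNA for SIV PT and from 5 µg for each other condition. Pollen in vitro grew in liquid medium. Growth through the pistil, total growth time, solid or liquid medium, removal of the grains, RNA input and condition cannot be told apart. In RNA from many tubes, more plastids or mitochondria and more transcript in each cannot be told apart either.

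Chloroplast DNA encodes subunits of the photosystems, the cytochrome b6f complex, the NAD(P)H dehydrogenase complex, ATP synthase and Rubisco, together with ribosomal proteins and the subunits of a bacterial-type RNA polymerase. Most of these genes stand in operons that are transcribed together and then processed, and a nuclear-encoded phage-type polymerase transcribes some of them. Mitochondrial DNA encodes a few subunits of the respiratory chain and its assembly factors, and many open reading frames of unknown function. Pollen plastids are not green, pollen tubes draw on respiration for growth, and in Arabidopsis neither organelle is normally inherited through pollen. Standard Affymetrix labelling starts from an oligo(dT) primer, while most organelle transcripts carry no poly(A) tail or a short one that marks them for decay. The study states that it followed an Affymetrix expression protocol, and the primer itself is not named in the sources read.

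Chloroplast transcripts were higher in SIV PT than in pollen of the other conditions. Mitochondrial transcripts as a set, most of them open reading frames of unknown function, were not. A member was said to change when limma's log-odds B exceeded 3 and the change was at least 3-fold on the log2(signal + 64) scale. Against dry pollen, 12 of 72 chloroplast members rose and 0 fell, where 4.08% of all probe sets rose and 2.82% fell. Of the 72, 70 lay above 0 (45.3% of all probe sets) and 49 were at least 2-fold higher (10.6%). The median log2 change was 1.38 and the range ran from -0.66 to 3.64. The median over all probe sets was -0.06. At an adjusted p under 0.05 at any fold (limma), 51 chloroplast members were higher and 0 lower, against 14.1% and 10.7% of all probe sets. Every SIV PT array lay above every dry pollen array for 52 chloroplast members (17.6% of all probe sets). Of the mitochondrial members 1 of 28 rose, the median was -0.05, and 12 lay above 0 and 16 below. By the adjusted p alone 2 were higher and 0 lower. Among the 28 were 20 open reading frames of unknown function, 6 above 0 and 14 below. Of the mitochondrial members of known function only nad7 and atp4 lay below 0.

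Against 4 h PT the count was 9 of 72 chloroplast members up and 0 down, with 2.71% of all probe sets up and 2.08% down. Here 68 lay above 0 (44.7% of all probe sets) and 41 were at least 2-fold higher (9.37%). The median log2 change was 1.199 (range -0.61 to 3.83), beside -0.07 over all probe sets. By the adjusted p alone 39 were higher and 0 lower, against 12.9% and 9.04% of all probe sets. All 3 SIV PT arrays lay above all 4 h PT arrays for 36 chloroplast members (15.3% of all probe sets). None of the 28 mitochondrial members changed (0 up, 0 down), and their median was -0.08. Their 20 open reading frames had 6 above 0 and 14 below, and of the members of known function only nad7 lay below. At an unadjusted p under 0.05 (limma) 4 mitochondrial members were higher and 3 lower, where 17.1% of all probe sets were higher and 13.9% lower. The comparisons with dry pollen and 4 h PT share the SIV PT arrays. Leaving out single arrays moved the counts: without SIV PT replicate 1, 3 chloroplast members rose against dry pollen and 5 against 4 h PT. Without SIV PT replicate 2, 4 and 5 rose, and without dry pollen replicate 3, 7 rose against dry pollen. Without SIV PT replicate 1 the count by adjusted p alone against 4 h PT was 24.

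**Figure D1:**
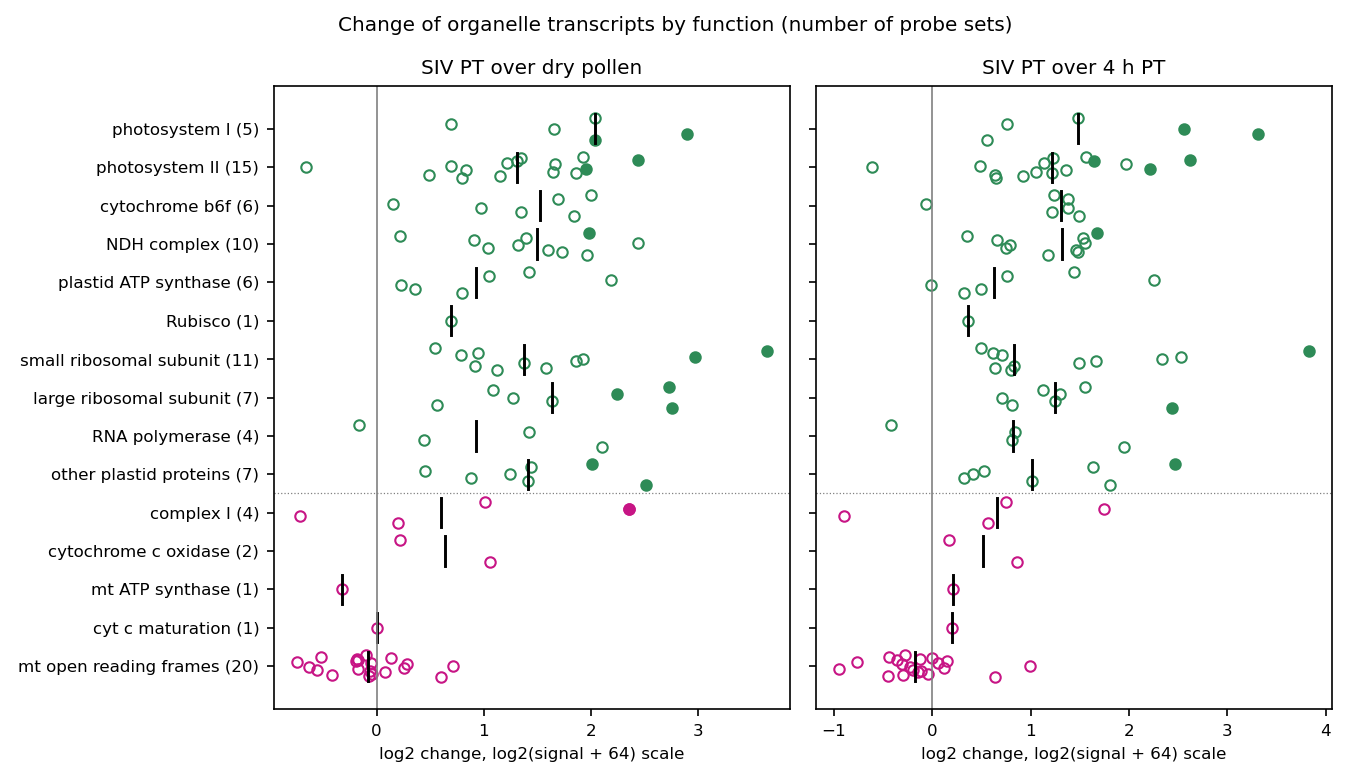
Log2 change of each organelle member, SIV PT over dry pollen and SIV PT over 4 h PT (x axis, log2(signal + 64) scale), grouped by function (y axis, number of probe sets in brackets). Points are probe sets, filled where B exceeded 3 and the change reached 3-fold, and bars are medians. Chloroplast groups lie mostly to the right of 0, with medians of 1.38 and 1.199 over the 72 members, and mitochondrial members lie around 0.

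Most members had low signals, and the same comparison was made among probe sets of low level only. Under a mean log2 signal of 8 over all arrays stood 17656 probe sets, 67 of them chloroplast and 28 mitochondrial members. Of these, 11 chloroplast members and 1 mitochondrial member rose against dry pollen, where 2.21% of the low probe sets did. Against 4 h PT, 9 and 0 rose, where 1.77% did. Members at least 2-fold higher in SIV PT over 4 h PT numbered 38 chloroplast and 1 mitochondrial, where 7.2% of the low probe sets passed that fold.

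A mean log2 signal of 8 or more in a condition was taken as expressed. In SIV PT 37 of 72 chloroplast members were expressed, against 4, 3 and 5 in the dry, 0.5 h and 4 h samples. Over all probe sets the shares were 26.3% in SIV PT and 21.7%, 21.9% and 22.5% in the same 3 conditions. Of the chloroplast members 31 were expressed in SIV PT alone, 3 (atpB, atpE and clpP) in all 4 conditions and 35 in none. Of the mitochondrial members 2 (nad4 and cox2) were expressed, in SIV PT alone, and 26 in none.

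**Figure D2:**
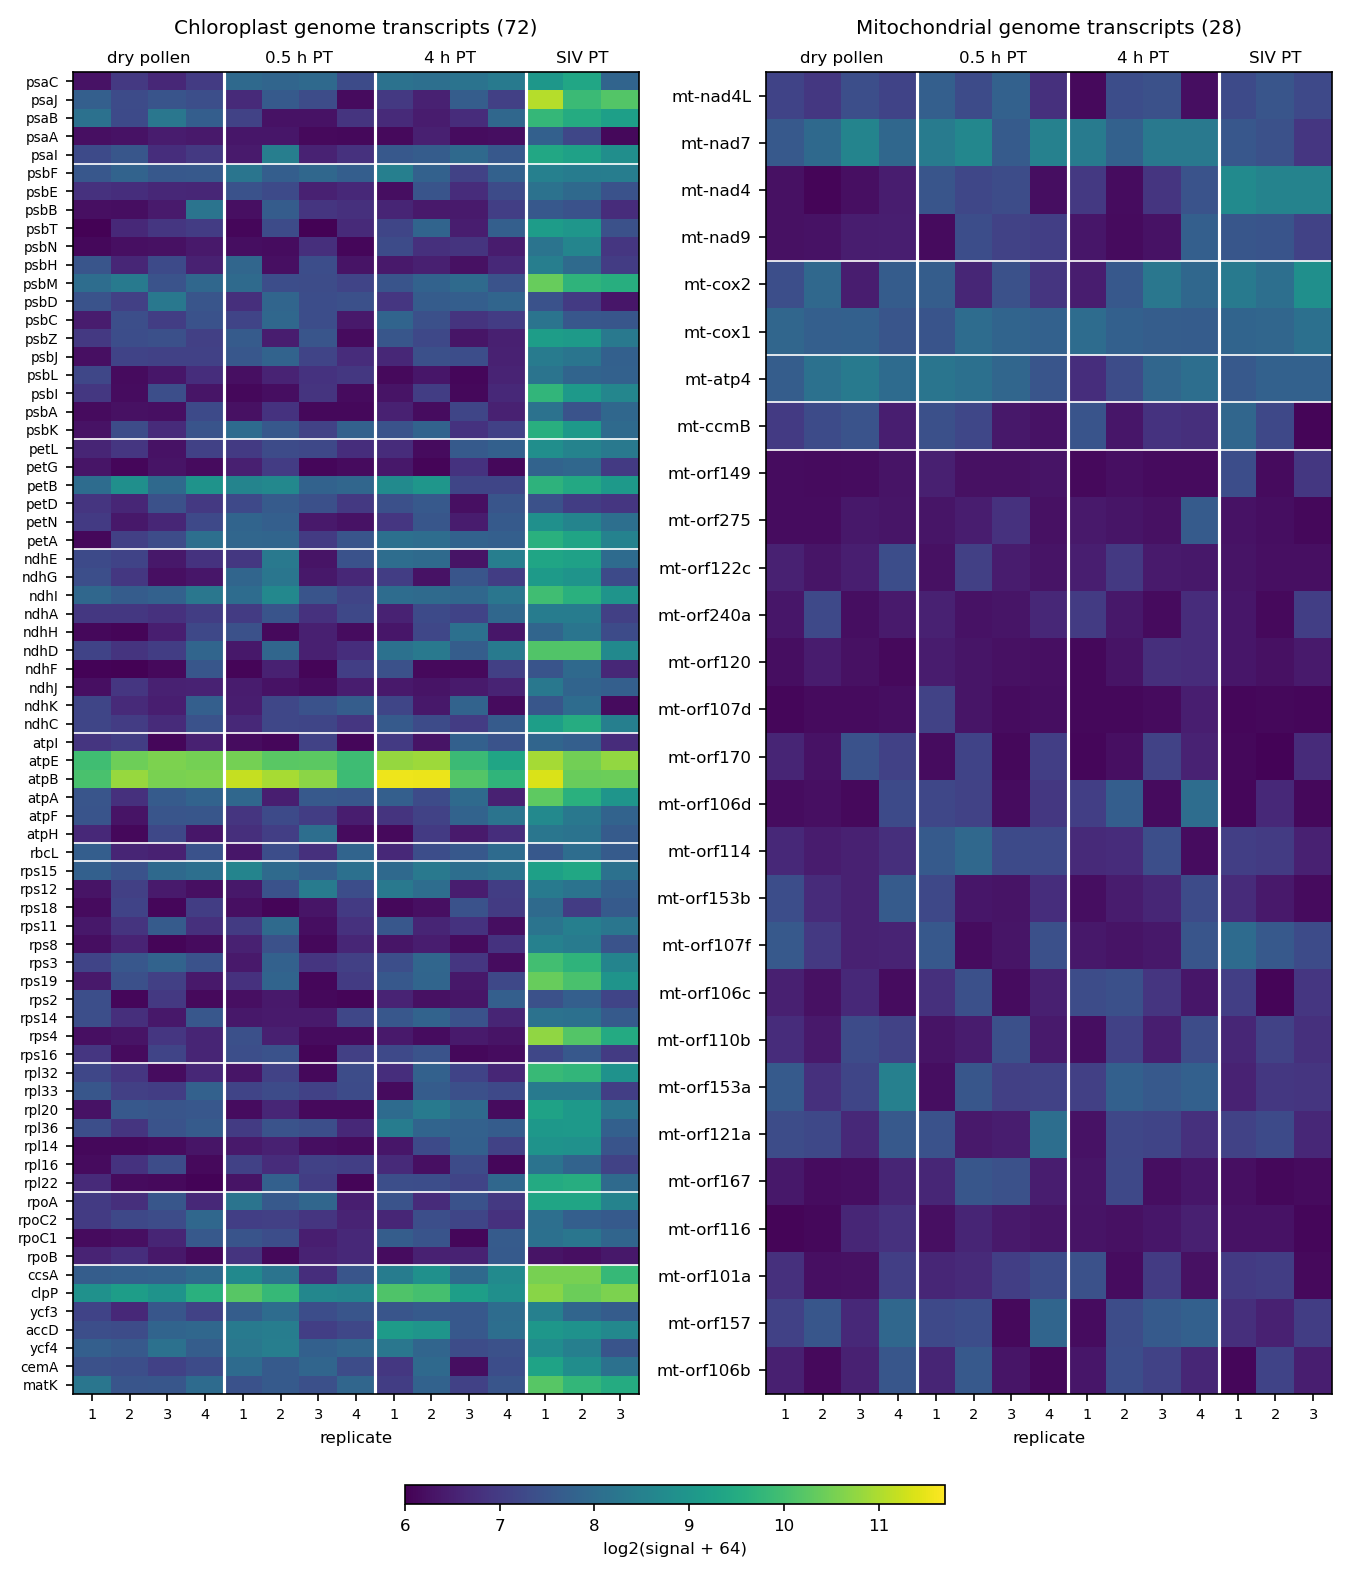
Log2(signal + 64) of every chloroplast member (left) and mitochondrial member (right) on each of the 15 arrays, arrays in columns by condition and replicate. The SIV PT columns of the chloroplast panel stand apart from the other 12 as brighter (higher) cells, dimmest of them in replicate 3, and the mitochondrial panel shows no such block.

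The summed signal of the 72 chloroplast members was 39770, 31770 and 20040 in the SIV PT arrays. It was 7128 to 9980 for dry pollen, 6440 to 11590 after 0.5 h of growth and 8358 to 13500 after 4 h. No in vitro or dry array reached the lowest SIV PT array. The 28 mitochondrial members summed to 2243, 1992 and 1940 in SIV PT, where dry pollen had 1511 to 2268, 0.5 h of growth 1606 to 2327 and 4 h of growth 1352 to 2357. The signal of all probe sets summed to 21869338 to 22867333 in SIV PT, against 30275572 to 33614076 on the other arrays. As a share of it, chloroplast members held 0.182%, 0.139% and 0.0916% in SIV PT, against 0.0207% to 0.0434% elsewhere. Mitochondrial members held 0.0103%, 0.00871% and 0.00887% in SIV PT, against 0.00429% to 0.00779% elsewhere, a separation that the summed signals themselves did not show.

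**Figure D3:**
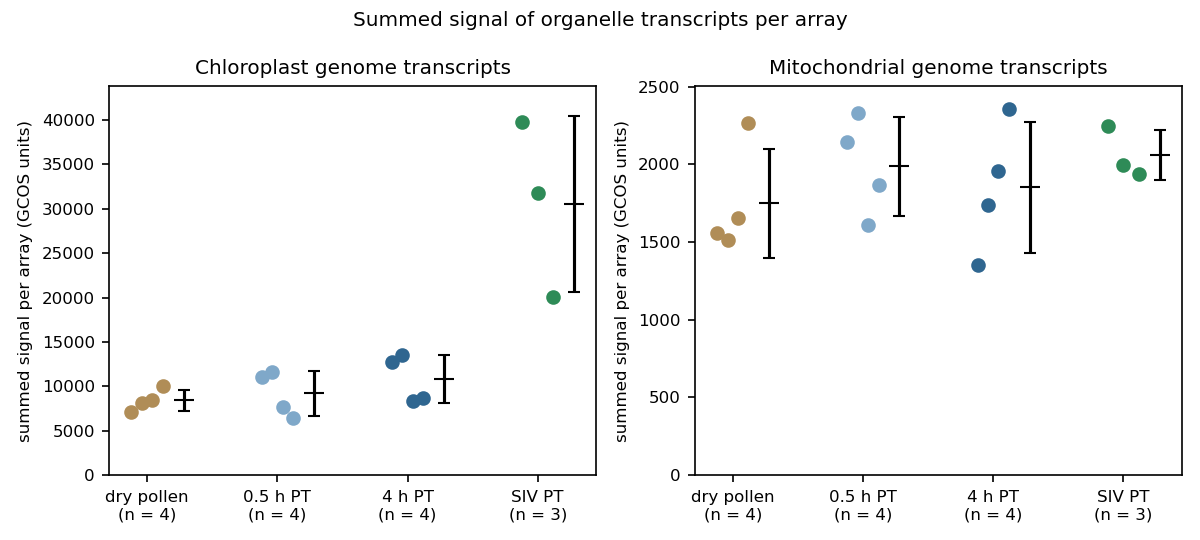
Summed signal per array (y axis, deposited scaled units) of the 72 chloroplast members (left) and the 28 mitochondrial members (right) in the 4 conditions (x axis). Points are arrays, and the bar beside them is the mean with its SD. The 3 SIV PT arrays sit between 20040 and 39770 on the left, above all others, and inside the range of the other arrays on the right.

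The SIV PT replicates differed from each other by the same order in most chloroplast members. Replicate 1 was the highest for 52 of 72 and replicate 3 the lowest for 62, and the median log2(signal + 64) was 8.80, 8.55 and 7.83 in replicates 1, 2 and 3. Replicate numbers are those of the sample labels, and a supplementary table of the study seems to give the first and the last SIV PT array the other way round. For mitochondrial members replicate 1 was the highest for 12 of 28 and replicate 3 the lowest for 13. Their medians were 6.87, 6.95 and 6.75.

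Signs of RNA quality moved with SIV PT as well. The ratio of the 3′ to the 5′ control probe set for GAPDH was 6.59 to 9.72 in SIV PT and 1.25 to 2.88 on the other arrays. For actin it was 1.71 to 2.08 in SIV PT and 0.0414 to 0.794 elsewhere, and for ubiquitin the ranges overlapped (3.34 to 4.05 and 2.11 to 3.86). Their part in the chloroplast values was not tested.

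Photosystem I gave some of the highest changes. Of its 5 members 2 rose against dry pollen and 2 against 4 h PT. psaJ (ATCG00630), a small membrane subunit, had signals of 2077, 878 and 1087 in SIV PT, compared with 60.1, 28.2, 141 and 70.7 in 4 h PT and 148, 93.5, 115 and 102 in dry pollen. All 3 SIV PT arrays lay far above every other. The log2 change was 3.31 ± 0.36 against 4 h PT (SE, adjusted p = 4.9e-06, limma) and 2.90 ± 0.36 against dry pollen. psaB (ATCG00340), which encodes a protein of the reaction-centre core, had 819, 663 and 531 in SIV PT, compared with 38.5, 22.7, 42.4 and 177 in 4 h PT and 213, 92.3, 243 and 145 in dry pollen. It rose by 2.56 ± 0.34 against 4 h PT and passed no limit on B against dry pollen (1.66 ± 0.34). psaC (ATCG01060) carries the terminal iron-sulfur clusters of the complex and differed from the rest in its course. It had 456, 599 and 164 in SIV PT, compared with 13.4, 59.3, 34.9 and 62.3 in dry pollen, 183, 168, 185 and 93.1 in 0.5 h PT and 218, 209, 225 and 261 in 4 h PT. The 4 h PT arrays already lay above all dry pollen arrays, and the SIV PT arrays overlapped them. The change was 2.04 ± 0.31 against dry pollen, past the limits, and 0.55 ± 0.31 against 4 h PT (limma, adjusted p = 0.246). The call against dry pollen was lost in 11 of 15 omissions of 1 array, all but 0.5 h PT replicates 1, 3 and 4 and SIV PT replicate 3, and under 2 of 8 other settings.

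Photosystem II had 15 members, of which 2 rose against dry pollen and 3 against 4 h PT, with medians of 1.31 and 1.22. psbI (ATCG00080), a small subunit near the reaction centre, had 804, 471 and 328 in SIV PT, compared with 15.1, 67.5, 5.49 and 36.2 in 4 h PT and 56.7, 9.49, 101 and 16.5 in dry pollen. It rose by 2.62 ± 0.33 against 4 h PT and by 2.44 ± 0.33 against dry pollen. Another small subunit, psbM (ATCG00220), had 1261, 776 and 699 in SIV PT, compared with 116, 159, 185 and 111 in 4 h PT and 199, 255, 111 and 176 in dry pollen. The SIV PT arrays stood clear of both, with changes of 2.21 ± 0.26 and 1.96 ± 0.26. psbL (ATCG00560) rose by 1.64 ± 0.25 against 4 h PT, with 231, 163 and 155 in SIV PT and 6.96, 17.6, 4.57 and 30.4 in 4 h PT. This call was lost in 9 of 15 omissions, among them each SIV PT array, 4 h PT replicates 1, 2 and 3, 0.5 h PT replicates 2 and 3 and dry pollen replicate 4, and under 4 of 7 other settings. At the other end stood psbD (ATCG00270), which encodes a reaction-centre protein. Its signals were 109, 61.95 and 16.8 in SIV PT and 55.6, 138, 143 and 167 in 4 h PT, overlapping, with a difference of -0.61 ± 0.34 (adjusted p = 0.25, limma).

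**Figure D4:**
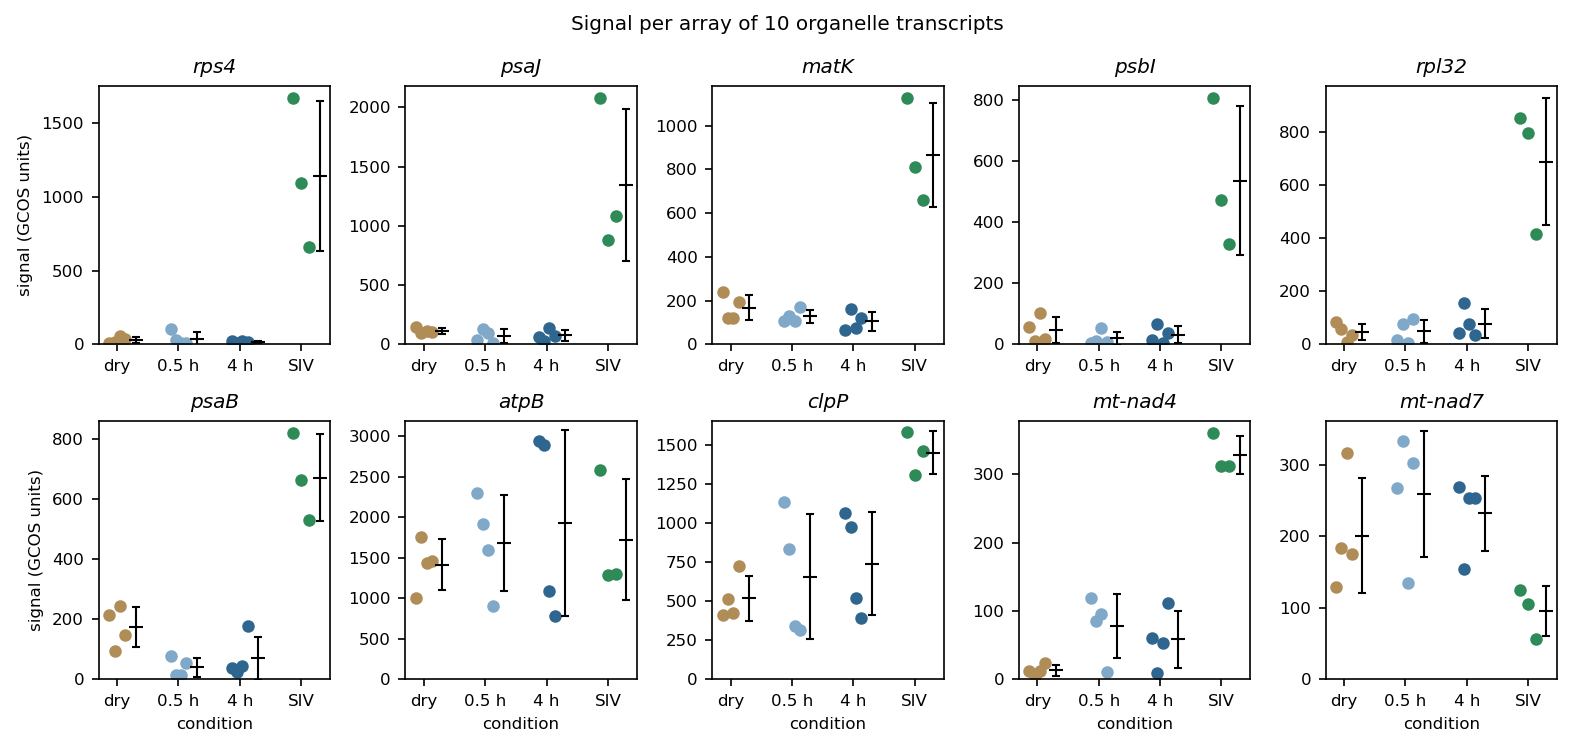
Signal per array (y axis, deposited scaled units) of 10 organelle members in each condition (x axis), with mt- before mitochondrial genes. Points are arrays, and the bar beside them is the mean with its SD. For rps4, psaJ, matK, psbI, rpl32 and psaB the 3 SIV PT arrays lie above all others, as for mitochondrial nad4, and for atpB they overlap the others.

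The 6 members of the cytochrome b6f complex, which passes electrons between the photosystems, had medians of 1.52 against dry pollen and 1.31 against 4 h PT, and 0 passed the limits. By the adjusted p alone (limma), petL (ATCG00590), a small subunit, was higher in both, with 389, 308 and 255 in SIV PT, compared with 42.4, 8.22, 132 and 150 in 4 h PT and 31.6, 55.8, 13.6 and 73.9 in dry pollen. Its change from 4 h PT was 1.49 ± 0.33. petD (ATCG00730), which encodes a core subunit, overlapped between groups (106, 67.6 and 55.0 in SIV PT, 103, 130, 11.5 and 117 in 4 h PT). Its difference was -0.07 ± 0.30.

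The plastid NAD(P)H dehydrogenase complex takes part in cyclic electron flow around photosystem I. Of its 10 members 1 rose in each comparison, and the medians were 1.49 and 1.32. The riser was ndhC (ATCG00440), a membrane subunit, with 524, 676 and 290 in SIV PT, compared with 131, 93.2, 65.6 and 136 in 4 h PT and 82.3, 64.8, 40.8 and 110 in dry pollen. It rose by 1.68 ± 0.26 against 4 h PT and by 1.98 ± 0.26 against dry pollen. The call against 4 h PT was lost in 12 of 15 omissions of 1 array, all but dry pollen replicates 3 and 4 and SIV PT replicate 3, and under 5 of 7 other settings. The smallest difference in the complex was that of ndhK (ATCG00430), 0.35 ± 0.47 against 4 h PT, with 120, 195 and 8.25 in SIV PT and 81.3, 19.0, 162 and 8.01 in 4 h PT. Replicate 3 of SIV PT was as low there as the lowest 4 h PT array.

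ATP synthase and Rubisco differed least. The 6 ATP synthase members had medians of 0.92 and 0.63, and 0 passed the limits. atpB (ATCG00480) and atpE (ATCG00470), subunits of the catalytic head from adjoining genes, were expressed in every condition. atpB had 2587, 1285 and 1304 in SIV PT, compared with 2938, 2897, 1085 and 783 in 4 h PT and 1003, 1758, 1438 and 1464 in dry pollen. The groups overlapped, and the difference from 4 h PT was -0.01 ± 0.44. For atpE it was 0.50 ± 0.31, with 1879, 1364 and 1682 in SIV PT and 1705, 1803, 883 and 594 in 4 h PT. atpA (ATCG00120), which encodes the other large subunit of the head, had 1192, 718 and 439 in SIV PT, compared with 148, 94.1, 185 and 27.5 in 4 h PT. No 4 h PT array reached these, yet with a change of 2.25 ± 0.41 (adjusted p = 0.000694, limma) its B stayed under the limit. rbcL (ATCG00490), the large subunit of the carbon-fixing enzyme Rubisco, differed by 0.36 ± 0.39 from 4 h PT, with 127, 200 and 136 in SIV PT and 36.6, 98.9, 127 and 191 in 4 h PT.

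Genes for the plastid ribosome held the highest change of all. Of 11 small-subunit members 2 rose against dry pollen and 1 against 4 h PT, with medians of 1.37 and 0.83. Of 7 large-subunit members 3 and 1 rose, with medians of 1.63 and 1.24. rps4 (ATCG00380), a small-subunit protein, had 1670, 1097 and 657 in SIV PT, compared with 19.3, 9.21, 20.6 and 14.8 in 4 h PT and 11.2, 14.8, 54.9 and 32.6 in dry pollen. Its signal was near the bottom of the scale in 4 h PT and dry pollen. It rose by 3.83 ± 0.32 against 4 h PT (adjusted p = 3.7e-07, limma) and by 3.64 ± 0.32 against dry pollen. rps19 (ATCG00820) had 1256, 999 and 428 in SIV PT, against 19.6, 104, 71.97 and 20.3 in dry pollen, and rose by 2.97 ± 0.44. rpl32 (ATCG01020), of the large subunit, had 854, 795 and 414 in SIV PT, compared with 43.2, 154, 76.7 and 33.9 in 4 h PT and 83.9, 56.2, 9.49 and 36.0 in dry pollen. It rose in both comparisons, by 2.43 ± 0.36 and 2.76 ± 0.36. rpl22 (ATCG00810) and rpl14 (ATCG00780), also of the large subunit, rose by 2.73 ± 0.41 and 2.25 ± 0.34 against dry pollen and stayed short of the limits against 4 h PT. Their differences from 4 h PT were 1.55 ± 0.41 and 1.302 ± 0.34. The smallest differences from 4 h PT were 0.49 ± 0.39 for rps16 (ATCG00050) and 0.71 ± 0.32 for rpl36 (ATCG00760).

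None of the 4 genes for the plastid RNA polymerase passed the limits, and by the adjusted p alone (limma) they parted. rpoA (ATCG00740), the alpha subunit, had 589, 593 and 308 in SIV PT, compared with 110.8, 40.3, 108.1 and 59.0 in 4 h PT, a change of 1.95 ± 0.36 (adjusted p = 0.000847). rpoB (ATCG00190), the beta subunit, stands in another operon and had 14.5, 11.5 and 18.2 in SIV PT, compared with 9.36, 27.8, 29.2 and 132 in 4 h PT. Its signals overlapped, with a difference of -0.42 ± 0.28 (adjusted p = 0.361, limma). In the same operon as rpoB, rpoC1 and rpoC2 had all SIV PT arrays above all 4 h PT arrays, at 0.84 and 0.81. By the adjusted p alone 1 of these was higher.

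Among the other 7 chloroplast members 2 rose against dry pollen and 1 against 4 h PT. matK (ATCG00040), a maturase that helps to splice plastid introns, had 1128, 812 and 661 in SIV PT, compared with 67.2, 159, 73.3 and 118 in 4 h PT and 237, 118, 121 and 191 in dry pollen. The SIV PT arrays stood clear of both, with changes of 2.47 ± 0.25 and 2.01 ± 0.25. ccsA (ATCG01040), needed to attach haem to c-type cytochromes, had 1410, 1421 and 836 in SIV PT, against 140, 147, 154 and 185 in dry pollen, and rose by 2.51 ± 0.37. clpP (ATCG00670), a protease subunit, was expressed in every condition. It had 1583, 1308 and 1465 in SIV PT, compared with 1063, 975, 523 and 394 in 4 h PT and 410, 513, 425 and 725 in dry pollen. No other array reached SIV PT, and the differences were 1.01 ± 0.40 and 1.41 ± 0.40, under the limits. The smallest difference from 4 h PT was that of ycf3 (ATCG00360), a photosystem I assembly factor, at 0.33 ± 0.25.

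Other chloroplast calls also rested on single arrays. Without SIV PT replicate 1, and likewise without replicate 2, the calls of psbI, ndhC, rpl14, rpl22, rps19, rpl32 and ccsA against dry pollen and of psaB and rpl32 against 4 h PT were lost, and without replicate 1 that of psbM against dry pollen. Omission of 1 dry pollen array ended the call of rpl14 or ccsA whichever was left out, that of rpl22 for replicates 2, 3 and 4 and that of rps19 for replicates 1, 3 and 4. Omission of a 4 h PT array ended the call of rpl32 against 4 h PT for replicates 1, 3 and 4, and among the calls against dry pollen that of rpl22 for replicates 1, 2 and 3 and those of rpl14 and rps19 for replicate 4. The call of rps19 was also lost without 0.5 h PT replicate 4. The calls of rps4, psaJ and matK in both comparisons, and of psbI and psbM against 4 h PT, were kept in all 15 omissions.

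The changes were not uniform along the plastid genome. The 9 measured genes from rps19 to rpoA, a cluster for ribosomal proteins and polymerase alpha, differed from 4 h PT by 0.71 to 2.53, with a median of 1.55. The 5 genes of the psbB operon ran from -0.07 to 1.38, and the 5 genes near petL from 0.81 to 3.31, where psaJ was the highest. In the psaA operon of 3 genes the values ran from 0.62 to 2.56, psaB the highest. The 2 genes of the atpB operon had -0.01 and 0.50. Between genes next to each other in 1 operon the median gap was 0.79 (42 pairs, 0.01 to 2.51), and between other neighbours 0.63 (29 pairs, 0.06 to 3.50), given as a description.

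**Figure D5:**
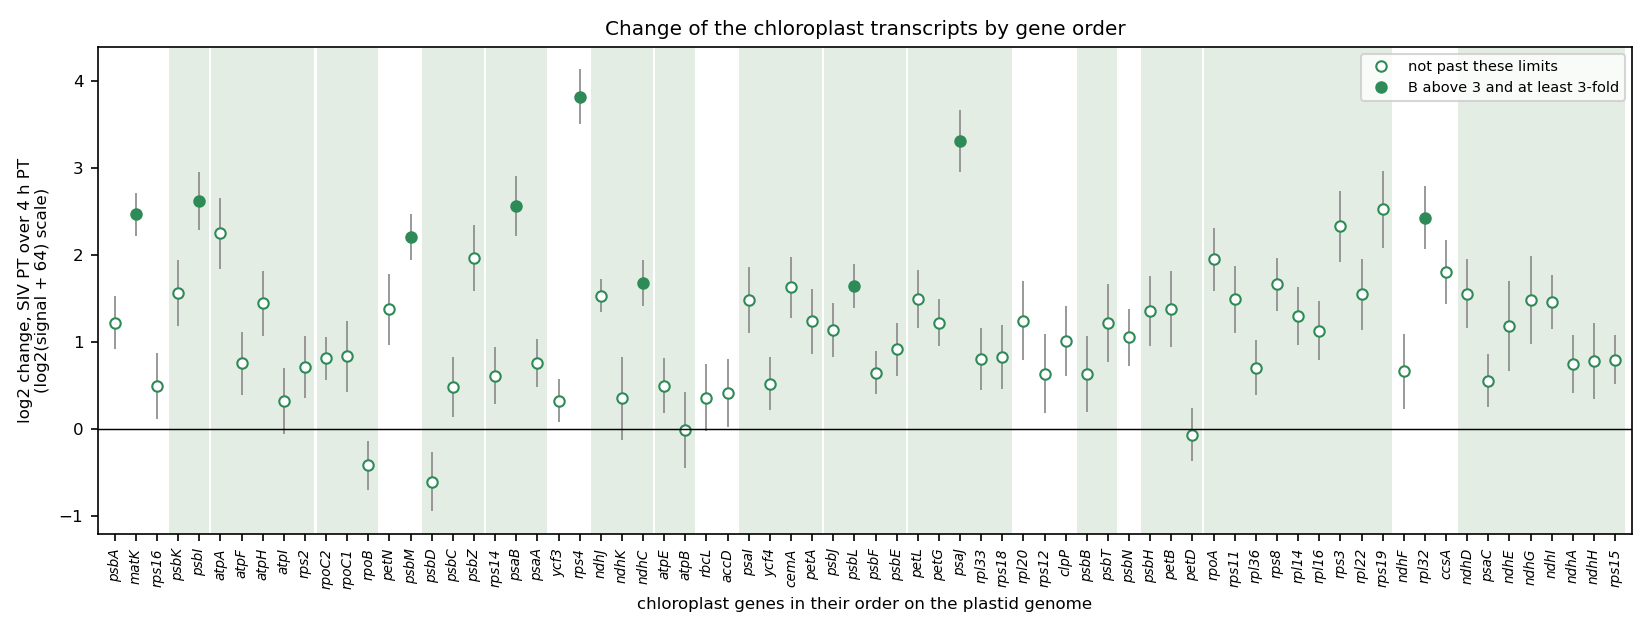
Log2 change of SIV PT over 4 h PT (y axis, log2(signal + 64) scale) of the 72 chloroplast members in gene order on the plastid genome (x axis, rank only). Filled points passed B above 3 and 3-fold. The 9 risers are spread along the order, rps4 the highest at 3.83, and 4 members lie below 0.

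The mitochondrial members of known function gave 1 riser. nad4 (mitochondrial, ATMG00580), a membrane subunit of respiratory complex I, had 360.5, 312 and 312 in SIV PT, compared with 60.2, 8.78, 53.2 and 111 in 4 h PT and 12.2, 4.00, 11.4 and 23.2 in dry pollen. All SIV PT arrays lay above all others. It rose by 2.36 ± 0.30 against dry pollen, and against 4 h PT the change was 1.75 ± 0.30 (adjusted p = 0.000472, limma) with B under the limit. nad7 (mitochondrial, ATMG00510), of the peripheral arm of the same complex, ran the other way. It had 124, 106 and 56.3 in SIV PT, compared with 268, 154, 253 and 253 in 4 h PT and 128, 183, 316 and 175 in dry pollen. Its SIV PT arrays were the lowest, with -0.90 ± 0.28 against 4 h PT (adjusted p = 0.0312, limma), short of 3-fold. nad9 (mitochondrial, ATMG00070), also of that arm, had 121, 115 and 76.3 in SIV PT, against 12.8, 14.1, 24.3 and 25.8 in dry pollen, a change of 1.01 ± 0.34 (adjusted p = 0.0431, limma). Its 4 h PT arrays overlapped SIV PT.

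The remaining known mitochondrial members overlapped between SIV PT and 4 h PT. cox1 (mitochondrial, ATMG01360), the catalytic subunit of cytochrome c oxidase, had 166, 172 and 209 in SIV PT, compared with 194, 149, 143 and 137 in 4 h PT, a difference of 0.17 ± 0.17. cox2 (mitochondrial, ATMG00160), which binds cytochrome c, had 257, 207 and 391 in SIV PT, compared with 23.7, 127, 242 and 177 in 4 h PT and 102, 178, 24.5 and 137 in dry pollen. The differences were 0.86 ± 0.42 and 1.06 ± 0.42, with adjusted p = 0.176 and 0.0822 (limma). For nad4L, atp4 and ccmB, of complex I, ATP synthase and cytochrome c assembly, they were 0.57, 0.21 and 0.20 against 4 h PT. Of the 20 open reading frames 0 changed in either comparison, and their medians were -0.08 against dry pollen and -0.17 against 4 h PT. By the adjusted p alone (limma) only orf149, named after its values were seen, was higher, at 0.64 ± 0.22, with SIV PT replicate 2 inside the 4 h PT range.

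During growth in vitro 0 chloroplast and 0 mitochondrial members changed. Of all probe sets 0.0264% rose and 0.0352% fell in 0.5 h PT against dry pollen, 0.51% rose in 4 h PT against 0.5 h PT, and 0.717% rose and 0.0484% fell in 4 h PT against dry pollen. Median log2 changes of the chloroplast members were 0.07, 0.08 and 0.21 in these comparisons, and of the mitochondrial members 0.02, -0.03 and 0.04. At an unadjusted p under 0.05 (limma), 8 chloroplast members were higher in 4 h PT than in dry pollen and 1 lower (6.9% and 6.23% of all probe sets), and 1 mitochondrial member was higher and 0 lower. In 4 h PT against 0.5 h PT the chloroplast counts were 5 and 0 (5.98% and 5.19%) and the mitochondrial ones 0 and 1. In 0.5 h PT against dry pollen they were 2 and 2 (2.98% and 3.07%) and 3 and 0. By adjusted p alone only psaC differed, between 4 h PT and dry pollen (1.48 ± 0.28, adjusted p = 0.0086, limma). By that rule 1.77% of all probe sets were higher and 0.611% lower in this comparison, 1.26% and 0.149% in 4 h PT against 0.5 h PT, and 0.0791% and 0.0703% in 0.5 h PT against dry pollen.

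The 51 probe sets kept apart had different reasons. All 8 of the chloroplast ones, mostly of the inverted repeat, and 21 of the 43 mitochondrial ones named several loci or genes, so their signal can come from either copy. Another 12 mitochondrial ones showed 1 organelle locus but carried a mark for multiple matches, and 10 had a gene name (nad1, nad2 or nad5) without a locus code. Of the 8 chloroplast ones 2 rose against dry pollen and 1 against 4 h PT, with medians of 1.77 and 1.49. The riser in both was ycf1, part of the import machinery of the inner envelope, at 2.51 ± 0.24 and 1.99 ± 0.24. The highest value against 4 h PT was that of rpl23, a ribosomal protein gene, at 2.05 ± 0.43, under the limit on B. Of the 43 mitochondrial ones 0 changed in either comparison (limma). By the adjusted p alone 2 were higher and 1 lower against dry pollen, and 2 and 2 against 4 h PT. At an unadjusted p under 0.05, 4 were higher and 4 lower against dry pollen (17.9% and 15.3% of all probe sets), and 3 and 4 against 4 h PT. The highest value in both was that of atp9, named after its values were seen, at 2.14 and 1.72, under the limit on B. Its probe set, which also names a nuclear locus, had 752, 713 and 707 in SIV PT. The other conditions had at most 219 (dry pollen), 178 (0.5 h PT) and 432 (4 h PT).

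Nuclear genes that work with these genomes were read in the same fit. The platform annotation and the study's supplementary tables named only some of them here. Of all probe sets 4.08% rose and 2.82% fell against dry pollen, and 2.71% and 2.08% against 4 h PT. For so few genes, a count of 0 is near those shares. Of 49 nuclear photosynthesis genes 9 were measured by name, and 0 changed in SIV PT against dry pollen or 4 h PT. Their summed signal was 458 to 1234 in SIV PT, compared with 481 to 712 in 4 h PT and 730 to 1139 in dry pollen. RCA, which encodes Rubisco activase, had 199, 109 and 124 in SIV PT, compared with 158, 88.2, 53.2 and 205 in 4 h PT. By replicate the sum was 1234, 614.9 and 457.6 in SIV PT replicates 1, 2 and 3, the same order as the summed chloroplast signal. With 3 arrays such an order can arise by chance, and RCA did not have it. The light-harvesting gene LHCB4.1 had 155, 9.02 and 26.9 in SIV PT and 9.32, 20.8, 57.1 and 10.9 in 4 h PT, so replicate 1 was above every 4 h PT array and the others were inside their range or below it. LHCB4.2, of the same antenna, had 92.9, 11.8 and 10.4 in SIV PT, with 33.1, 6.75, 22.8 and 35.7 in 4 h PT and 7.16 to 123 in dry pollen. The part of green tissue in the chloroplast values was not tested, and RBCS and PSBO are unnamed here. Of 36 nuclear genes for plastid ribosomal proteins 14 were measured and 0 changed, with medians of -0.08 against dry pollen and -0.18 against 4 h PT. PRPL34, the only such member with all SIV PT arrays above both other groups, had differences of 1.01 ± 0.30 and 1.15 ± 0.30.

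Of 29 genes for organelle transcription and RNA decay 5 were measured and 0 changed. RPOTp, the phage-type polymerase of plastids, had 40.8, 3.98 and 39.4 in SIV PT, compared with 19.6, 138, 103 and 153 in 4 h PT, a difference of -0.80 ± 0.43. DPD1, an exonuclease that degrades organelle DNA in pollen, had 297, 470 and 554 in SIV PT, compared with 336, 454, 200 and 182 in 4 h PT. These overlapped, at 0.53 ± 0.28. PTAC12, a protein of the plastid polymerase complex named after its values were seen, had 10.8, 4.81 and 6.51 in SIV PT, with 99.7, 80.4, 16.2 and 14.0 in 4 h PT and 33.4 to 85.2 in dry pollen. All SIV PT arrays were the lowest, at -0.79 ± 0.27 against dry pollen (adjusted p = 0.0458, limma) and -0.63 ± 0.27 against 4 h PT (adjusted p = 0.128).

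Of 10 pistil markers 3 were measured and 0 changed. Their summed signal was 313, 186 and 67.7 in SIV PT replicates 1, 2 and 3, again in the order of the chloroplast signal, where 4 h PT had 101 to 202, 0.5 h PT 183 to 427 and dry pollen 84.4 to 216. Of the 3 genes only CES had that order by itself. With 3 arrays such an order can arise by chance, and it was not tested. In the same replicates, plastid ribosomal proteins summed to 892, 755 and 969, and organelle transcription and RNA decay genes to 373, 501 and 722. The respiratory chain had 56070, 53640 and 61690, and the vegetative-cell genes 18150, 18600 and 19450. CES, named after its values were seen, had 264, 95.9 and 15.0 in SIV PT, with 65.6, 4.62, 20.7 and 17.0 in 4 h PT, a difference of 0.86 ± 0.40 (adjusted p = 0.155, limma). Replicates 1 and 2 were above all 4 h PT arrays and replicate 3 was not. SPT, a transcription factor of the carpel, ran lower, with 42.2, 79.0 and 45.9 in SIV PT and 69.2 to 122 in 4 h PT, and NGA1 had 6.13 to 11.4 in SIV PT and 8.85 to 44.3 in 4 h PT. The part of pistil tissue in the chloroplast values was not tested.

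The nuclear genes of the mitochondrial respiratory chain, with 22 probe sets for 21 of 38 genes, had medians of -0.28 against dry pollen and -0.20 against 4 h PT. Against dry pollen 2 rose (4.08% of all probe sets) and against 4 h PT 1 (2.71%), and 0 fell in either (2.82% and 2.08%). By the adjusted p alone (limma) 4 were higher and 8 lower against dry pollen (14.1% and 10.7% of all probe sets). Against 4 h PT 4 were higher and 6 lower (12.9% and 9.04%). QCR7-2, a subunit of complex III, had 5279, 4401 and 3239 in SIV PT, compared with 595, 191, 810 and 1093 in 4 h PT and 297, 170, 259 and 356 in dry pollen. It rose by 2.74 ± 0.40 and 3.71 ± 0.40. The other riser was SDH1-1, a subunit of complex II, at 2.29 ± 0.22 against dry pollen, with 7216, 7702 and 8719 in SIV PT and 1730, 1619, 1675 and 1247 in dry pollen. Without any 1 of the SIV PT replicates, or without 4 h PT replicate 1, the count against 4 h PT was 0, and without 4 h PT replicate 4 it was 2.

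Of 4 measured vegetative-cell genes of the pollen tube 3 fell in SIV PT against dry pollen and 2 against 4 h PT. Of all probe sets 2.82% and 2.08% fell in these comparisons. The receptor-like kinase gene PRK2 fell by 2.60 on the log2 scale against 4 h PT (SE 0.15) and the receptor kinase gene BUPS2 by 1.63 (SE 0.18), and both fell against dry pollen. The transcription factor gene AGL66 fell by 1.73 (SE 0.24) against dry pollen. Without 4 h PT replicate 2 or 3, or without SIV PT replicate 2, only PRK2 passed against 4 h PT. CNGC18, a channel gene of the tube, passed in neither comparison, with 3333, 3605 and 3332 in SIV PT and 4387, 4240, 4466 and 2820 in 4 h PT, overlapping at -0.19 ± 0.18.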

How the data were processed

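Total RNA of 15 pollen samples was labelled with biotin and hybridised to ATH1 arrays, 1 sample per array. The authors deposited linear intensity values from GCOS (version not given in the sources used here), 1 per probe set and array. On every array the 2% trimmed mean was 500.1, so levels are relative to all other transcripts of that array, and their scale differs from absolute amounts. Depth has no meaning for arrays, and the 3 or 4 arrays per condition limit the precision.

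The 64 control probe sets were left out, and log2(signal + 64) of 22746 probe sets was fitted with limma 3.58.1 (R 4.3.3; lmFit, eBayes, 1 mean per condition, all 15 arrays). P-values were adjusted over all probe sets by Benjamini-Hochberg. Changed meant B above 3 and at least 3-fold, the limits of the study. The study applied them to RMA values, normalized together with public arrays of other tissues. Fold and B here are on another scale, so counts at these limits are not like for like. The offset understates changes of low signals. Locus codes came from the platform gene table and, for 2025 probe sets, from the codes in the study's supplementary tables. 6748 probe sets had no locus here. No genome build is named, so positions are not given. The fit was also run on data simulated with independent noise per probe set and array, without shifts shared by many probe sets of an array. No result here rests on that run. Members and lists were chosen with earlier results of these data known. Named were up to 10 members past the limits per organelle, comparison and direction, the 5 with the highest mean level per organelle, the members with the largest and smallest change from 4 h PT in each functional group, all mitochondrial members of known function, up to 4 changed genes per nuclear list, and green tissue genes. Other offsets, scalings, limits, filters, a replicate block, an intensity trend, wider membership and omission of each array were tried. P-values set a difference between condition means against the spread between arrays of a condition, estimated over all 15 arrays.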

Additional observations from a re-analysis of the deposited data

Results flagged for a closer look

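Groups of 4 arrays were searched for an array far from the other 3, for the 38 named members and the 2 organelle shares, 120 groups in all. Of these 8 held such an array, and chance alone gives about 1 in 20. Chloroplast psbI had 52.0 in 0.5 h PT replicate 3, where the others had 5.43 to 10.1. petD had 11.5 in 4 h PT replicate 3, below 103 to 130.2 in the others. psaC had 93.1 in 0.5 h PT replicate 4, below 168 to 185. Mitochondrial nad9 had 149 in 4 h PT replicate 4, above 7.49 to 17.2, and nad7 had 154 in 4 h PT replicate 2, below 253 to 268. The open reading frame orf106d had 92.5 in dry pollen replicate 4, above 7.28 to 11.6, and orf107f had 116 in 4 h PT replicate 4, above 15.2 to 18.6. The mitochondrial share of the summed signal was 0.00735% in dry pollen replicate 4, above 0.0049% to 0.00518%. SIV PT has 3 arrays and was not examined in this way.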

How the results depend on the processing

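No value past the limits changed direction under any alternative. The median log2 change of the chloroplast members stayed between 0.70 and 2.00 against dry pollen and between 0.58 and 1.59 against 4 h PT over 22 alternatives that kept all 72, and that of the mitochondrial members between -0.18 and 0.03 and between -0.20 and 0.04. Some of the 22 could not move these medians: the adjusted p rule, the intensity trend and omission of arrays outside the comparison. Counts of changed chloroplast members, 12 against dry pollen and 9 against 4 h PT, became 30 and 17 with an adjusted p under 0.05 in place of B (limma), 7 and 5 with an offset of 16, 5 and 4 with an offset 4 times the main one, and 4 and 2 among probe sets with a mean log2 signal of 7 or more, where fewer members were tested. With the adjusted p at any fold, chosen after seeing the data, they were 51 and 39, and 1 for 4 h PT against dry pollen. Quantile normalization gave 8 and 6. Omitting single arrays gave 3 to 16 and 5 to 11. The mitochondrial count against dry pollen, 1, was 0 with either other offset and under the signal filter, 2 by adjusted p at any fold, and 1 to 1 on omission. Against 4 h PT, 0 became 1 with the adjusted p and 3-fold or with median centring, 3 at any fold (2 higher, 1 lower), and 0 to 1 on omission, with 1 without 0.5 h PT replicate 4. Apart from what the construction shows, the cause was not tested.

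Expressed chloroplast members numbered 13, 14, 17 and 60 over the conditions in time order (SIV PT last) with a limit of 7, and 2 (dry pollen), 3 (4 h PT) and 16 (SIV PT) with a limit of 9. Expressed mitochondrial members numbered 3, 3, 2 and 5 with a limit of 7, 0 in SIV PT with a limit of 9, and 1 in 0.5 h PT and 1 in SIV PT after quantile normalization. Omission, added after seeing the data like all alternatives for shares and nuclear lists, gave 3 to 4, 3 to 4, 4 to 5 and 34 to 43 chloroplast members in the same order, and 0 to 1 mitochondrial members after 0.5 h (1 without replicate 3), 0 to 1 after 4 h (1 without replicate 2) and 1 to 2 in SIV PT (1 without replicate 3). After quantile normalization the mean share of summed signal in SIV PT was 0.083% for chloroplast members, against 0.137% as deposited, and 0.00673% for mitochondrial members, against 0.00928%. With the probe sets kept apart included, the mitochondrial share was 0.0155%, 0.0165%, 0.0166% and 0.0238% in the 4 conditions. Omission gave chloroplast shares of 0.115% to 0.16% in SIV PT. Nuclear respiratory chain genes changed against dry pollen numbered 5 after quantile normalization (2 main). Against 4 h PT they numbered 0 with an offset of 16, 4 after quantile normalization and 2 after median centring (1 main), and 0 to 2 on omission. Pollen genes changed against 4 h PT numbered 1 after quantile normalization or median centring (2 main) and 1 to 2 on omission. Of 13 named members changed against dry pollen, rps4 passed under every alternative, and of 9 against 4 h PT, matK, rps4 and psaJ did.

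Whether the replicate numbers pair the samples was not settled. Same-numbered arrays of different conditions had deviations correlated at -0.02 to 0.04 (median 0.00198). Differently numbered ones had -0.05 to 0.03 (median 0.000286). All these correlations were weak, yet 9 of 15 arrays correlated best with an array of their own number. With the replicate number as a block, 10 chloroplast members rose against dry pollen and 8 against 4 h PT, and 1 and 0 mitochondrial members. With 3 SIV PT arrays and most members near the lower end of the signal scale, the size of low changes is poorly fixed.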

Other observations

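Within a condition the arrays also differed in chloroplast level outside SIV PT. In 0.5 h PT, replicate 2 was the highest of its condition for 35 of 72 chloroplast members and replicate 3 or 4 the lowest for 26 and 27. The median signal of all probe sets was also highest in that replicate 2, at 95.2 against 74.7 to 88.5. In dry pollen, replicate 4 was the highest for 30. There the median of all probe sets was 77.7, 74.7, 97.8 and 93.8 in replicates 1 to 4. Mitochondrial members followed in dry pollen, where replicate 4 was the highest for 15 of 28. atpB had 2302, 1917, 1601 and 901 in 0.5 h PT and 2938, 2897, 1085 and 783 in 4 h PT.

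Without atpB and atpE the chloroplast share of the summed signal was 0.161%, 0.127% and 0.078% in SIV PT, against 0.0149% to 0.0283% on the other arrays.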
